A study of Mus musculus with 2 samples.

Results

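The annexins are a family of cytoplasmic proteins that bind negatively charged membrane lipids when calcium is present. RNA-seq values for 9 annexin genes (Anxa1, Anxa2, Anxa3, Anxa4, Anxa5, Anxa6, Anxa7, Anxa9 and Anxa11) were read by gene symbol from the 23284 symbols listed for WT and STAP-1 KO CML LSCs. The list was selected on measured values of these libraries, with Anxa3 set against its paralogs, so its values are a description and carry no test. A further 3 annexin symbols, Anxa8, Anxa10 and Anxa13, were listed at or near 0 FPKM and are given below. Chronic myeloid leukemia (CML) was modelled by transducing LSK cells (lineage-negative, Sca-1+ c-Kit+ bone marrow cells) of C57BL/6J mice with a retrovirus carrying human BCR-ABL and GFP. The transduced cells were transplanted with bone marrow cells into lethally irradiated C57BL/6SJL recipients, and GFP+ CD45.2+ LSK cells, the leukemic stem cells (LSCs), were sorted on day 11 of the first round of bone marrow transplantation (BMT). Donors were wild type (WT) or carried a targeted disruption of the STAP-1 locus (STAP-1 KO), all mice were 8 to 14 weeks old, and both groups carried the same BCR-ABL vector. There was 1 library of each genotype, and whether a library came from 1 mouse or from a pool was not given in the sources used here, so differences between the libraries have no replicate check, and WT LSCs and STAP-1 KO LSCs below stand for these single libraries.

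Each annexin carries a conserved core of repeated helical domains, which holds the calcium-binding loops, behind an N-terminal tail that differs between members and binds partners such as S100 proteins. Annexin A1 (Anxa1) is known as an anti-inflammatory mediator of granulocytes and macrophages, and annexin A2 (Anxa2) as a cell-surface receptor for plasminogen. Annexin A5 (Anxa5) binds exposed phosphatidylserine, the property behind its use as a stain for apoptotic cells, and annexin A3 (Anxa3) is abundant in neutrophils, where it associates with granules. All levels are FPKM, which scales the fragments of a gene to its exon length and to the size of the library, so that levels of different genes can be compared. A gene was counted as higher or lower when its FPKM differed at least 2-fold between the libraries with at least 0.1 FPKM in both.

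The coding sequences show why reads of these paralogs can be told apart. The 60-base windows below, read 5′ to 3′ on the coding strand from the mouse genome (mm10) and the GENCODE annotation, cover codons 91 to 110 of Anxa3 and the codons aligned with them in the other annexins, a stretch of the conserved core. Capitals mark the 13 bases that are identical in all 9 genes.
Anxa3: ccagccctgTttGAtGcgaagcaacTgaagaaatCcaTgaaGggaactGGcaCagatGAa
Anxa1: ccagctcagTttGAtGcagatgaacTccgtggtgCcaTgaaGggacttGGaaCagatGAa
Anxa2: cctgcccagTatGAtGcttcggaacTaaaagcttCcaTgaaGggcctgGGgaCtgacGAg
Anxa4: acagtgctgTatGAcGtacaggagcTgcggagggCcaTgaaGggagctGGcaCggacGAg
Anxa5: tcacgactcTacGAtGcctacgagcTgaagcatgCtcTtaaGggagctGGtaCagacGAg
Anxa6: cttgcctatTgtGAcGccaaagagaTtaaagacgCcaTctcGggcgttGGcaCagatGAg
Anxa7: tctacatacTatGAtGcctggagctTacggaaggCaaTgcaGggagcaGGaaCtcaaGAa
Anxa9: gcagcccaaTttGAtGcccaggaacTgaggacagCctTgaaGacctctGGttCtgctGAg
Anxa11: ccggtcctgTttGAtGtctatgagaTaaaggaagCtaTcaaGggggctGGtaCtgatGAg
Each window joins the ends of 2 neighbouring coding exons across an intron. On the plus strand lay the windows of Anxa3 (exons 5 and 6, chr5:96816413-96820419), Anxa2 (exons 5 and 6, chr9:69479750-69482991) and Anxa11 (exons 7 and 8, chr14:25874743-25876678). On the minus strand lay those of Anxa1 (exons 5 and 6, chr19:20382123-20382903), Anxa4 (exons 4 and 5, chr6:86753876-86754894), Anxa5 (exons 5 and 6, chr3:36460516-36461922), Anxa6 (exons 5 and 6, chr11:55009183-55011033), Anxa7 (exons 9 and 10, chr14:20462708-20462948) and Anxa9 (exons 5 and 6, chr3:95302408-95302707). Within the window Anxa1 shared 43 of 60 bases with Anxa3, the most of the 8 paralogs, and Anxa7 shared 32, the fewest.

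Over the aligned codons of the whole coding sequence, Anxa3 shared between 49.9% of bases (with Anxa9) and 60.1% of bases (with Anxa4) with its paralogs. The longest run of identical bases between the Anxa3 transcript and a paralog was 18 bases, with Anxa11, and it was between 12 and 14 bases with each of the other 7. Reads were 75 bases long. No stretch of 75 bases was shared between any pair of the annexins, and for Anxa1, Anxa2, Anxa3, Anxa5, Anxa6, Anxa7 and Anxa9 none was found in the transcript of any other annotated gene. Anxa4 shared 4 of its 1956 stretches with an overlapping noncoding gene. Anxa11 differed from the others in that 628 of its 2320 stretches (27.1%) occurred in other annotated transcripts. Most of these lay in a pair of unprocessed pseudogenes downstream on the same strand, Gm2260 (583 stretches, chr14:26016431-26025837) and Gm2274 (528 stretches, chr14:26156036-26163648). The following stretch from coding exon 12 of Anxa11 (chr14:25882930-25883004, plus strand), is identical in the gene and in both copies, so a read from it could belong to any of them.
Anxa11: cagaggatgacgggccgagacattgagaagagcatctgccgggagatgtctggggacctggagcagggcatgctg
How such reads were assigned was not given in the sources used here, and values for the copies were not used here, so the level of Anxa11 is less certain than those of its paralogs.

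Each library was checked against its label first. Stap1 stood at 62.0 FPKM in WT LSCs and at 0.309 FPKM in STAP-1 KO LSCs. Of the genes behind the sort, Ly6a (Sca-1) stood at 285 and 106 FPKM and Kit at 468 and 30.1 FPKM in the WT and STAP-1 KO LSCs. Cd34, a progenitor marker, stood at 281 and 194 FPKM. The libraries thus differed in their own sort genes, with Kit 15.6-fold and Ly6a 2.70-fold lower in STAP-1 KO LSCs. The cause was not tested. The files hold no read counts. From the steps between low FPKM values an effective depth of about 7500000 reads was estimated for WT LSCs and 10460000 for STAP-1 KO LSCs, and the intervals below are exact 95% intervals on the reads this implies. They cover counting error only and not the spread between mice. The libraries also differed by transcript length, with a Spearman rho of -0.40 between transcript length and log2 ratio over 10855 genes of 1 pair of libraries, so shorter transcripts had higher ratios in STAP-1 KO LSCs. The annexin transcripts, 1447 to 2904 bases long, were shorter than the median of these genes, 2952 bases.

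Anxa3 was the single annexin at least 2-fold higher in STAP-1 KO LSCs, and 3 annexins, Anxa4, Anxa6 and Anxa11, were at least 2-fold lower. The other 5 differed by less than 2-fold, and 7 of the 9 had a ratio below 1. Over the 12507 genes at 0.1 FPKM or more in both libraries, 12.3% were at least 2-fold higher and 22.9% at least 2-fold lower by the same rule. Since the list was chosen from these values, its counts are printed beside that background and nothing is read from them. The 9 annexins all passed the 0.1 FPKM minimum in both libraries.

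**Figure D1:**
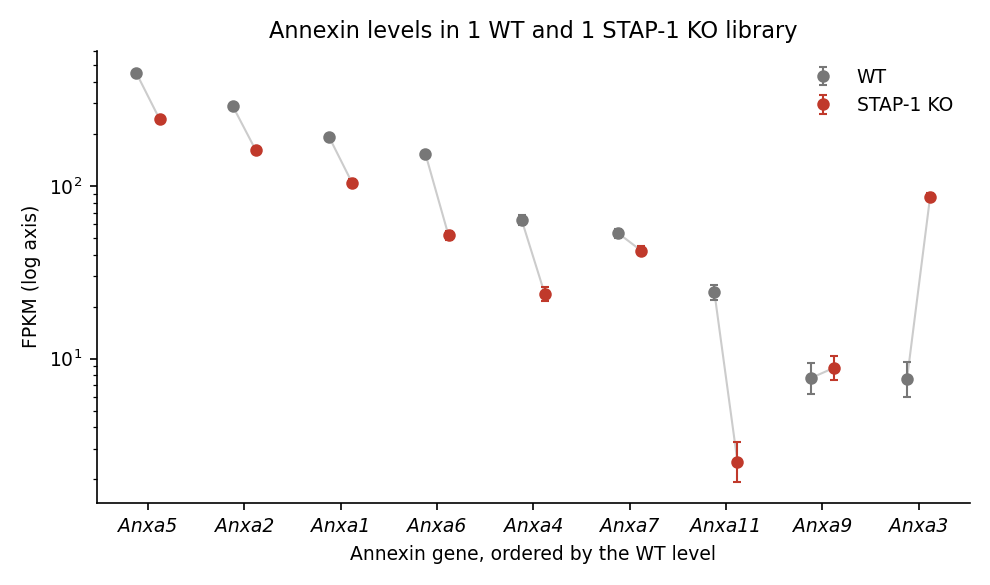
FPKM of the 9 annexins (log axis) in WT LSCs (grey) and STAP-1 KO LSCs (red), ordered by the WT level. Bars are exact 95% counting intervals and lines join the values of a gene. Anxa3 is the lowest annexin in WT LSCs at 7.59 FPKM and the fourth highest in STAP-1 KO LSCs at 86.0 FPKM, while 7 of the other annexins are lower in STAP-1 KO LSCs.

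Anxa3 (ENSMUSG00000029484, chr5:96793339-96845966, plus strand) stood at 7.59 FPKM in WT LSCs (counting interval 6.03 to 9.49) and at 86.0 FPKM in STAP-1 KO LSCs (81.3 to 90.9). The STAP-1 KO level was thus 11.3-fold higher (counting interval 9.02 to 14.4), from about 79 and 1251 reads. On the log2 scale with 0.1 FPKM added to each level, the ratio was 3.49. Among the 10974 genes averaging 1 FPKM or more, whose median log2 ratio was -0.04, 48 had a higher ratio than Anxa3. By level it ranked 7504 among the listed genes in WT LSCs and 1467 in STAP-1 KO LSCs. Its transcript of 1595 bases belongs to the length class with higher ratios: 542 genes had transcripts of 1434 to 1656 bases, their median log2 ratio was 0.44, and Anxa3 lay above 99.4% of them. With the medians of genes of like transcript length and GC content taken off, the log2 ratio of Anxa3 was 2.96.

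The annexins with the most mRNA per length were Anxa5, Anxa2 and Anxa1 in both libraries, and each was lower in STAP-1 KO LSCs by a similar factor. Anxa5 (chr3:36448923-36475894, minus strand) stood at 448 FPKM in WT LSCs and 243 FPKM in STAP-1 KO LSCs, 1.84-fold lower (counting interval 1.77 to 1.92). Anxa2 (chr9:69453620-69491795, plus strand) stood at 289 and 160 FPKM, 1.81-fold lower (1.70 to 1.91). Anxa1 (chr19:20373428-20390944, minus strand) stood at 192 and 104 FPKM, 1.85-fold lower (1.73 to 1.97). These 3 genes did not reach the 2-fold limit, and the counting intervals of their ratios overlapped each other. They are also genes whose transcripts, of 1447 to 1731 bases, belong to the length classes with ratios above the overall median: their log2 ratios of -0.88 (Anxa5), -0.85 (Anxa2) and -0.88 (Anxa1) became -1.20, -1.10 and -1.34 with transcript length and GC content taken off, past the 2-fold limit.

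Anxa6 and Anxa4 were lower by a larger factor. Annexin A6 is the annexin with a duplicated core and is known to bind membranes of the endocytic pathway and the cortical cytoskeleton. Anxa6 (chr11:54979108-55033445, minus strand) stood at 153 FPKM in WT LSCs and 51.6 FPKM in STAP-1 KO LSCs, 2.97-fold lower (counting interval 2.77 to 3.18). Anxa4 (chr6:86736840-86793584, minus strand), which encodes an annexin that binds intracellular membranes, stood at 63.3 and 23.6 FPKM, 2.68-fold lower (2.39 to 3.01). The counting intervals of both ratios lay apart from those of Anxa5, Anxa2 and Anxa1.

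Anxa7 and Anxa11 encode the annexins with a long N-terminal tail, and they lay far apart from each other. Anxa7 (chr14:20455260-20480133, minus strand), known for its role in secretion and membrane fusion, stood at 53.3 FPKM in WT LSCs and 42.2 FPKM in STAP-1 KO LSCs, 1.26-fold lower (counting interval 1.16 to 1.37). Anxa11 (chr14:25842156-25886804, plus strand), known to bind RNA granules and calcyclin, stood at 24.3 and 2.53 FPKM, 9.58-fold lower (7.26 to 12.8). That was the lowest ratio of the list, with 290 of the 10974 expressed genes lower still. It rests on about 397 and 58 reads of a transcript that shares the stretches described above with its pseudogene copies. Pdcd6 and Sri, which encode the EF-hand proteins ALG-2 and sorcin that bind these tails, both stayed within 2-fold. Pdcd6 stood at 117 FPKM in WT LSCs and 172 FPKM in STAP-1 KO LSCs, and Sri at 136 and 108 FPKM.

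Anxa9, an annexin whose core lacks working calcium sites, was the member with the least difference. Anxa9 (chr3:95296096-95307176, minus strand) stood at 7.70 FPKM in WT LSCs and 8.83 FPKM in STAP-1 KO LSCs, 1.15-fold higher with a counting interval of 0.882 to 1.49 that includes 1. Its log2 ratio of 0.19 turned to -0.026 with transcript length and GC content taken off, so no direction is given for it. Its gene overlaps Mindy1 on the opposite strand, but their transcripts share no 75-base stretch. Anxa8 was listed at 0 FPKM in WT LSCs and 0.115 FPKM in STAP-1 KO LSCs, the latter about 2 reads, and 3 reads would have given 0.240 FPKM in WT LSCs. Anxa10 and Anxa13 were listed at 0 FPKM in both libraries, where 3 reads would have given 0.258 and 0.404 FPKM in WT LSCs and 0.184 and 0.288 FPKM in STAP-1 KO LSCs.

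**Figure D2:**
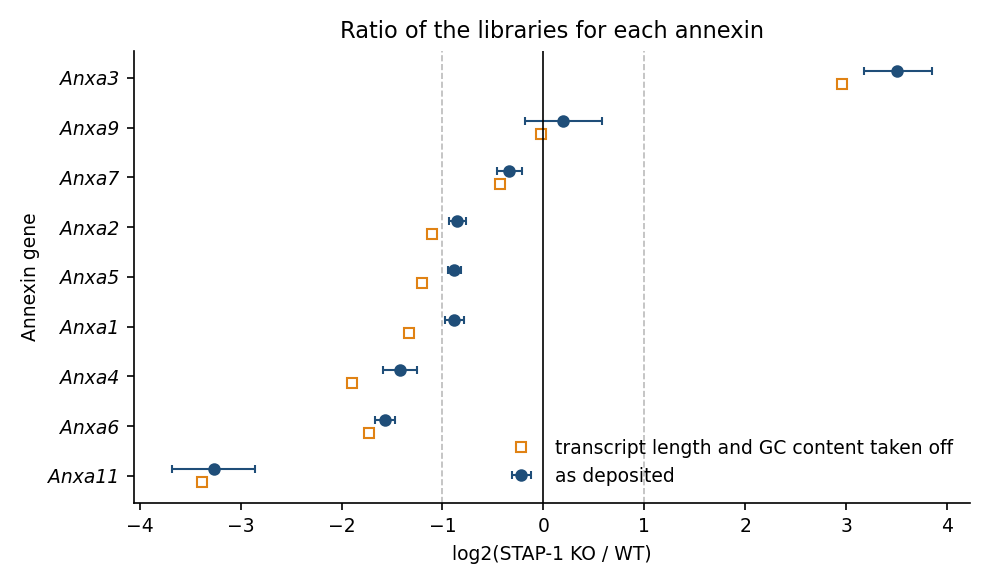
Ratio of the STAP-1 KO to the WT level of each annexin on the log2 scale, as deposited (filled points, with exact 95% counting intervals) and with transcript length and GC content taken off (open squares, 0.1 FPKM added). Dashed lines mark a 2-fold difference. Anxa3 lies alone on the right at 11.3-fold higher as deposited, and Anxa11 is farthest to the left at 9.58-fold lower.

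The log2 ratios of the 8 paralogs ran from -3.21 (Anxa11) to 0.19 (Anxa9) with a median of -0.88, against a median of -0.05 over the 12507 genes. Anxa3 lay 4.37 above the median of the paralogs and 3.29 above Anxa9, the highest paralog. In the plane of both levels, the paralog nearest to Anxa3 was Anxa7, at a Euclidean distance of 2.98 log2 units, and 3537 listed genes were nearer than Anxa7. The genes whose pair of levels was most like that of Anxa3 over the 2 libraries were of other families. Ppic, a cyclophilin, lay 0.39 log2 units away at 9.78 FPKM in WT LSCs and 95 FPKM in STAP-1 KO LSCs. Next were Rtp4 (8.99 and 65.2 FPKM, distance 0.47), an interferon-induced chaperone of receptor transport, and Ramp1 (7.92 and 60.5 FPKM, distance 0.51), a subunit of the CGRP receptor. Clec4e, the lectin Mincle of myeloid cells, followed at 7.10 and 52.3 FPKM (distance 0.72) and Epb4.1l4b at 6.72 and 51.3 FPKM (distance 0.76). With 2 libraries, likeness in this measure means only that both levels were close.

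**Figure D3:**
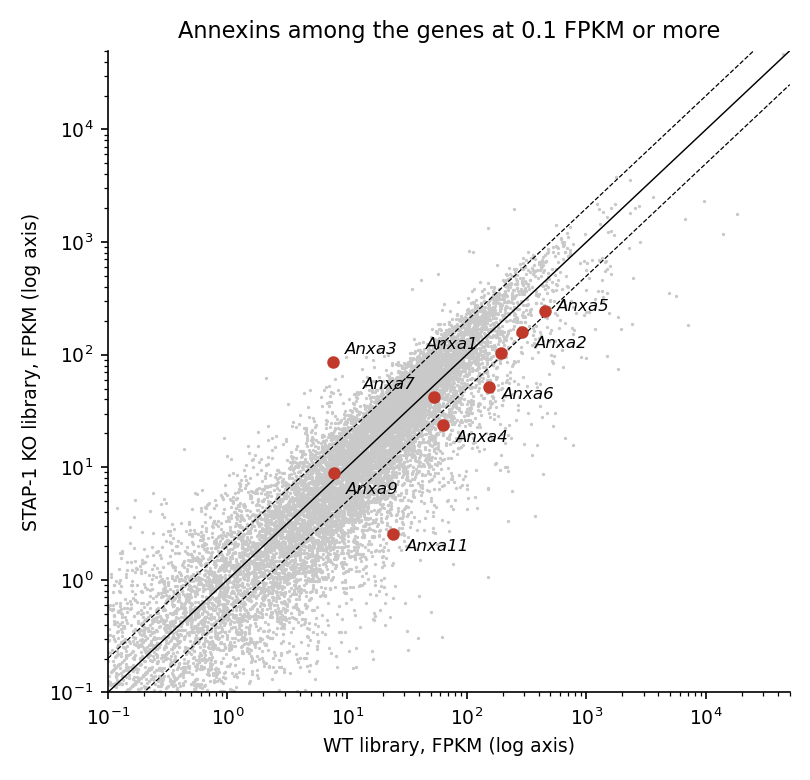
FPKM in WT LSCs (x) and STAP-1 KO LSCs (y), both on log axes, for genes at 0.1 FPKM or more in both (grey) and the 9 annexins (red). The solid line marks equal levels and dashed lines a 2-fold difference. Anxa3 lies above the upper dashed line, Anxa4, Anxa6 and Anxa11 below the lower one, and the other 5 between them.

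Apart from Anxa3, Anxa11 and an exchange of Anxa4 and Anxa7, the order of the annexins by level was kept. In WT LSCs it ran Anxa5, Anxa2, Anxa1, Anxa6, Anxa4, Anxa7, Anxa11, Anxa9 and Anxa3, and the neighbours Anxa9 and Anxa3 were the single pair with overlapping counting intervals. In STAP-1 KO LSCs it ran Anxa5, Anxa2, Anxa1, Anxa3, Anxa6, Anxa7, Anxa4, Anxa9 and Anxa11, with no overlap between the counting intervals of neighbours. Anxa5 was 59.0 times as high as Anxa3 in WT LSCs and 2.83 times as high in STAP-1 KO LSCs. Anxa6 was 20.2 times as high as Anxa3 in WT LSCs and 0.601 times as high in STAP-1 KO LSCs, so their order turned.

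Summed over the 9 genes, annexin levels came to 1238 FPKM in WT LSCs and 722 FPKM in STAP-1 KO LSCs, 0.191% and 0.119% of all FPKM. The sum was 1.72-fold lower in STAP-1 KO LSCs with Anxa3 and 1.94-fold lower without it. Anxa3 made up 0.613% of the annexin FPKM in WT LSCs and 11.9% in STAP-1 KO LSCs. By estimated reads its share was 0.526% (79 of 15011 reads, exact 95% binomial interval 0.417% to 0.655%) and 10.5% (1251 of 11902 reads, 9.97% to 11.1%). Anxa5, Anxa2 and Anxa1 together held 75% of the annexin FPKM in WT LSCs and 70.2% in STAP-1 KO LSCs. Anxa6 held 12.4% and 7.15%.

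**Figure D4:**
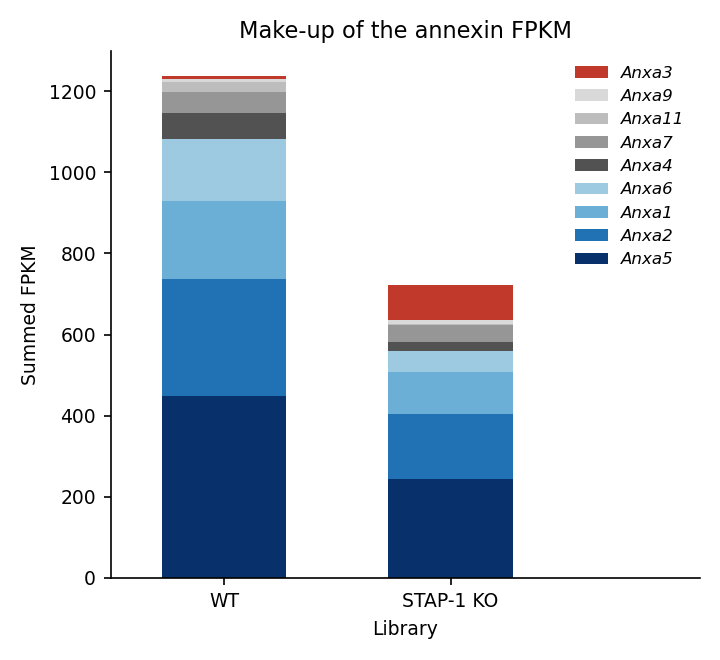
Summed FPKM of the 9 annexins in each library (linear axis from 0), stacked by gene. The stack reaches 1238 FPKM in WT LSCs and 722 FPKM in STAP-1 KO LSCs, and the red segment, Anxa3, is 0.613% of the first and 11.9% of the second.

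The S100 proteins are small calcium-binding proteins, several of which dock on annexin tails, and 9 of 14 S100 genes were at 0.1 FPKM or more in both libraries. Of these 9, 5 were at least 2-fold lower in STAP-1 KO LSCs and 1 at least 2-fold higher, beside 22.9% and 12.3% of all genes tested, and with transcript length and GC content taken off 7 were lower and 0 higher, beside 17.2% and 10.6% under that correction. Their median log2 ratio, over the 9 that averaged 1 FPKM or more, was -1.05. S100a10, the p11 subunit that pairs with annexin A2, stood at 562 FPKM in WT LSCs and 225 FPKM in STAP-1 KO LSCs, 2.50-fold lower. S100a11, a partner of annexin A1, stood at 199 and 146 FPKM, 1.37-fold lower. S100a6 (calcyclin), a partner of annexins A2 and A11, stood at 537 and 97.6 FPKM, 5.50-fold lower. The partner-to-annexin ratio of levels differed between pairs: S100a10 over Anxa2 was 1.94 in WT LSCs and 1.4 in STAP-1 KO LSCs, S100a11 over Anxa1 was 1.04 and 1.4, and S100a6 over Anxa11 was 22.1 and 38.5. S100a4, which also binds annexin A2, stood at 130 and 62.7 FPKM. S100a13 stood at 82.9 and 33.5 FPKM and S100a9, a calprotectin subunit, at 104 and 30.04 FPKM. The S100 gene that was higher, S100a5, stood at 5.36 and 12.8 FPKM (about 9 and 30 reads) and was named after its value was seen. Its log2 ratio of 1.24 became 0.68 with transcript length and GC content taken off, within 2-fold.

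Plasminogen activation takes place on cells at receptors that include annexin A2 with S100a10. Of 8 genes of this system, 4 were at 0.1 FPKM or more in both libraries, and these 4 were at least 2-fold lower in STAP-1 KO LSCs, beside 22.9% of all genes tested, with a median log2 ratio of -2.03. Plaur, the urokinase receptor, stood at 65.1 FPKM in WT LSCs and 26.4 FPKM in STAP-1 KO LSCs. Plgrkt, a plasminogen receptor listed as 5033414D02Rik, stood at 190 and 83.5 FPKM. The inhibitor gene Serpinb2 (PAI-2) stood at 11.7 and 0.487 FPKM. Plasminogen itself (Plg) was listed at 0 FPKM in WT LSCs and at the level of about 1 read in STAP-1 KO LSCs. The formyl peptide receptors, through which annexin A1 acts on leukocytes, were near the limit of detection: Fpr1 stood at 0.718 and 0.171 FPKM (about 6 and 2 reads), Fpr2 at 0.123 and 0 FPKM, and Fpr3 at 0 FPKM in both. Fpr1 was the single gene of these 3 at 0.1 FPKM or more in both libraries and counted as lower.

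Phosphatidylserine, the lipid that annexin A5 binds, is moved across the plasma membrane by scramblases and flippases. Of 11 such genes 1 was at least 2-fold higher and 3 were at least 2-fold lower in STAP-1 KO LSCs, beside 12.3% and 22.9% of all genes tested, with a median log2 ratio of -0.57. With transcript length and GC content taken off, 1 was higher (Plscr2) and 1 lower (Plscr4), beside 10.6% and 17.2%. Plscr2, of the phospholipid scramblase family, stood at 1.19 FPKM in WT LSCs and 4.36 FPKM in STAP-1 KO LSCs, and Plscr4, of the same family, at 7.26 and 0.845 FPKM. The flippase genes Atp8a1 and Atp11a stood at 13 and 4.18 FPKM and at 3.02 and 0.766 FPKM, and both came within 2-fold under that correction, from log2 ratios of -1.61 and -1.85 to -0.76 and -0.74. Several annexins gather at torn plasma membranes, and of 14 genes of membrane repair 10 were at 0.1 FPKM or more in both libraries. Of these 10, 0 were at least 2-fold higher and 5 at least 2-fold lower, beside 12.3% and 22.9% of all genes tested, with a median log2 ratio of -0.92. The calpain genes Capn1 (29.2 and 7.09 FPKM), Capn2 (60.8 and 9.59 FPKM) and Capns1 (109 and 45.3 FPKM) encode calcium-activated proteases. Ahnak, whose giant protein binds annexin A2 with S100a10, stood at 16.1 FPKM in WT LSCs and 0.235 FPKM in STAP-1 KO LSCs, 68.5-fold lower. Its log2 ratio of -5.60 became -4.68 with transcript length and GC content taken off. Dysf (dysferlin) and Trim72 (MG53), central repair genes of muscle, were listed at 0 FPKM in both libraries.

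Marker genes of several myeloid cell types also differed between the libraries. Their counts stand beside 12.3% of all genes tested at least 2-fold higher and 22.9% at least 2-fold lower. Counts with transcript length and GC content taken off stand beside 10.6% higher and 17.2% lower. All 8 mast cell markers were at least 2-fold lower in STAP-1 KO LSCs, with a median log2 ratio of -3.46 and a summed level of 48590 FPKM in WT LSCs and 4227 FPKM in STAP-1 KO LSCs. All 6 primary granule genes of promyelocytes were at least 2-fold higher, with a median log2 ratio of 3.0 and summed levels of 571 and 4666 FPKM. Mpo (248 and 1973 FPKM), Prtn3 (57.4 and 525 FPKM), Ctsg (104 and 841 FPKM) and Ms4a3 (41.5 and 460 FPKM) were among them. Of the 11 markers of later neutrophils 10 were listed and 9 were at 0.1 FPKM or more in both libraries. Of these 9, 6 were at least 2-fold lower (7 with transcript length and GC content taken off) and 0 at least 2-fold higher. The summed levels of the 10 were 420 and 188 FPKM. S100a8 and S100a9 belong to this list and to the S100 list above, so the counts of these lists overlap. Ltf stood at 13.7 and 3.69 FPKM, Camp at 18.8 and 5.13 FPKM and Ngp at 52.3 and 9.72 FPKM, while Lcn2, the single one with a higher level, stood at 17.8 and 28.7 FPKM.

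**Figure D5:**
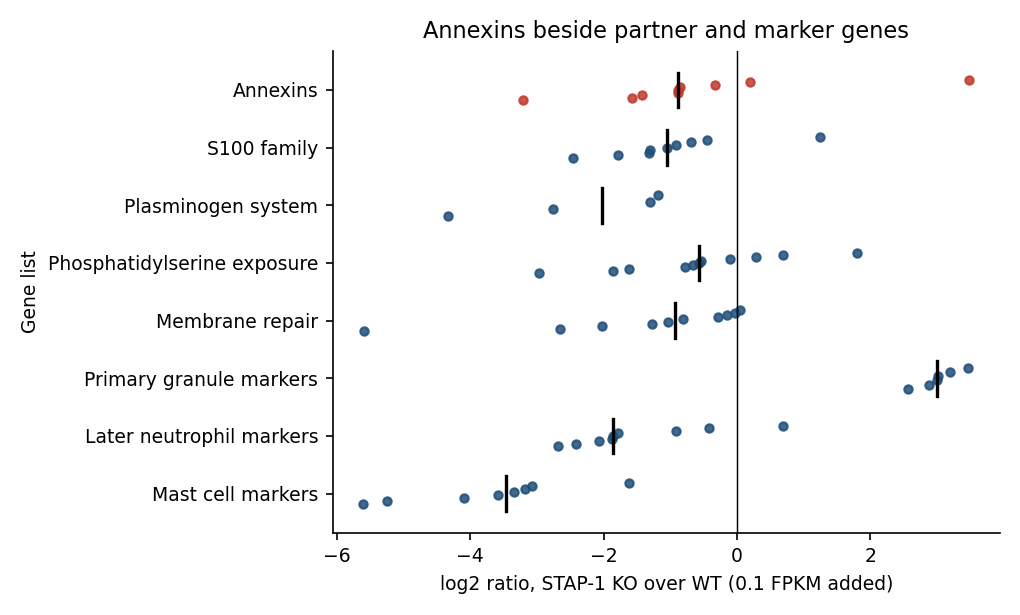
Log2 ratio of the STAP-1 KO to WT LSCs (0.1 FPKM added) for genes averaging 1 FPKM or more in each list, 1 point a gene, with the list median as a bar. The annexins (red) have a median of -0.88 with Anxa3 apart at 3.49. The primary granule markers run from 2.57 to 3.47 with a median of 3.0, and mast cell markers have a median of -3.46.

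The remaining marker lists stand beside the same background of 12.3% higher and 22.9% lower, or 10.6% and 17.2% with transcript length and GC content taken off. Of the 9 monocyte and macrophage genes 8 were at 0.1 FPKM or more in both libraries, and these had 3 higher (2 with transcript length and GC content taken off) and 3 lower, with summed levels of 234 and 244 FPKM over the 9. The 4 listed of 5 eosinophil genes had 2 higher and 1 lower with 10.5 and 73.8 FPKM. The 6 megakaryocyte genes had 1 higher and 2 lower, or 1 lower under that correction (196 and 132 FPKM), the 5 erythroid genes 0 higher and 2 lower (484 and 279 FPKM), and the 6 lymphoid genes, of which 3 were at 0.1 FPKM or more in both libraries, 1 higher and 1 lower (14.3 and 23.2 FPKM), with Ebf1 listed at 0 FPKM in both libraries. In such bulk samples fewer cells of a type and less RNA per cell cannot be told apart. The part of these cell types in the annexin differences was not tested.

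Anxa3 lies on chromosome 5, the chromosome of Stap1, with 10.7 Mb between the end of Stap1 and the start of Anxa3. Of the 113 listed genes between them, 38 averaged 1 FPKM or more, and these had a median log2 ratio of -0.21 with 7 at least 2-fold higher and 8 at least 2-fold lower, beside 11.5% and 22.2% of the 10974 genes at that level. The genes that start nearest to Anxa3 did not share its pattern of levels. Upstream lay Fras1, listed at 0 FPKM in both libraries, Mrpl1 (17.5 FPKM in WT LSCs and 31.0 FPKM in STAP-1 KO LSCs) and Cnot6l (57.0 and 14.5 FPKM). Downstream lay Bmp2k (18.9 and 4.69 FPKM), Paqr3 (0.686 and 1.06 FPKM) and Naa11, listed at 0 FPKM in both.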

How the data were processed

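Total RNA of sorted cells was amplified with the SMART-Seq v4 kit, made into libraries with Nextera XT and sequenced in 75-base single reads. The authors mapped reads to mm10 with TopHat 2.0.13 and Bowtie2 2.2.3 and deposited FPKM values from Cuffnorm 2.2.1. The submitters' processing notes list SAMtools 0.1.19. The gene annotation used and the scaling between libraries were not given in the sources used here.

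Both libraries (1 WT, 1 STAP-1 KO) entered each comparison, without a test. Log2 ratios were taken after adding 0.1 FPKM. Estimated reads were FPKM times an effective depth times transcript length, less 212 bases (WT) or 204 bases (STAP-1 KO). Depth and bases were those that put most values under 0.3 FPKM of single-transcript genes within 0.01 of a whole read. That share was 46.6% (WT) and 45.9% (STAP-1 KO). Chance would give 2% at 1 fixed setting, which is not the chance level for the best of many settings. Lengths, positions and sequences came from GENCODE M21, by 20911 symbols as written and 1880 through older symbols, with 493 unmatched. Length and GC content were taken off as medians of 20 bins each. Scripts ran in Python 3.11.15 with pandas 2.3.3, scipy 1.17.1 and Biopython 1.88, and were tested on simulated data.

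The annexins and the gene lists were chosen with earlier results of these data known. Named were every annexin, Stap1 and the sorting markers, per list up to 4 genes that differed most on the log2 scale at 1 FPKM added, known annexin partners, all members of lists under 6 genes of the annexin pathways, the 5 genes nearest to Anxa3 by level and 3 on each side of it by position. S100a5, Lcn2 and genes listed at 0 were named after their values were seen. S100a8 was named because the S100 and later neutrophil lists share it. Alternatives were other added values, scalings, minimums, fold limits and sets of annexins. Values of some list members are not reported here.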

Additional observations from a re-analysis of the deposited data

How the results depend on the processing

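Under 4 other scalings of the libraries, a minimum of 1 FPKM and no minimum, the count of annexins at least 2-fold higher stayed at 1 (Anxa3) and that of annexins at least 2-fold lower at 3 (Anxa4, Anxa6 and Anxa11). The scalings moved the median log2 ratio of expressed genes to between -0.11 and 0.06. With transcript length and GC content taken off, Anxa3 came to 2.96, the median of the other 8 annexins to -1.27, and Anxa9 reversed from 0.19 to -0.026. The lower count was then 6 (Anxa1, Anxa2 and Anxa5 joining) against backgrounds of 10.6% higher and 17.2% lower. It was also 6 at a 1.5-fold limit (25.6% and 32.8%) and 1 (Anxa11) at a 4-fold limit (2.40% and 8.56%). The share of Anxa3 in the sum of the 9 annexins in the STAP-1 KO library was 10.5% by estimated reads against 11.9% by FPKM. Over 7 alternatives the log2 ratio of Anxa11 ran from -3.38 to -2.84, that of Anxa6 from -1.72 to -1.47 and that of Anxa7 from -0.43 to -0.24. The cause was not tested. Depth limits the STAP-1 KO level of Anxa11 (about 58 reads), the WT level of Anxa3 (79) and both levels of Anxa9 (96 and 154). For the gene lists, the correction for length and GC content was added after seeing the data. No paired analysis was possible because each genotype has 1 library, and no replicate could be left out.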
